A study of Mus musculus with 18 samples.

Results

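Notch1, Notch2, Notch3, Jag1, Dll1, Rbpj, Hes1 and Hey1, 8 genes of the Notch pathway, were followed through 18 RNA-seq libraries of mouse lens. They were picked by name, as 8 of the 40800 Ensembl genes in the count table, and all 8 were among the 13938 genes with enough counts to be tested. Whole lenses came from C57BL/6J mice of 2 knock-in lines, and several lenses were pooled for each library. In the Cryaa line, lenses of wild-type (WT) mice and of mice with 1 copy (Cryaa-R49C-het) or both copies (Cryaa-R49C-homo) of the mutation were taken at 2 days of age, with 3 libraries each. In the Cryab line, lenses of WT mice and of mice with 1 copy (Cryab-R120G-het) or both copies (Cryab-R120G-homo) were taken at 14 days of age, also with 3 libraries each. The knock-in mutations change 1 amino acid of αA-crystallin or αB-crystallin, the chaperones of the lens, and lead to cataract. The mutation is carried in the germ line, so every cell of a mutant animal held it, and the WT mice of each age carried neither mutation. Line and age change together, so the lines cannot be told apart from the ages. Since the labels of 6 mutant Cryab libraries give the Cryaa mutation as their genotype, groups follow the sample titles.

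Notch signaling passes from cell to cell. A ligand on one cell (Jag1, Dll1) binds a receptor on its neighbor (Notch1, Notch2, Notch3), the receptor is cut, and its intracellular part moves to the nucleus, where it binds the DNA-binding protein RBPJ and switches on repressors such as Hes1 and Hey1. In the lens, Jag1 from the fiber side and Notch2 and Rbpj in the epithelium are known to keep epithelial cells dividing and to pace their differentiation into fibers, while Notch3 marks mural cells and Notch1 and Notch4 act in endothelium in tissues with vessels.

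Library totals lay between 14272174 and 29639719 counts. TMM scaling factors lay between 1.2 and 2.27 at day 2 and between 0.49 and 0.77 at day 14. Lens fiber markers were high in every library, with a summed level of 1220 CPM (counts scaled to library size with TMM factors) or more, although Lim2, one of the 10 on the list, had no count in any library. Cryaa-R49C-homo library 1 stood apart from the other two of its group, with a Cryaa level of 92956 CPM against 38261 and 31385 CPM. The RNA Gm42418, which took up between 2.53% and 42.6% of the counts of a library, was lowest in that library. In lysates of whole lenses, fewer cells of a type and less RNA per cell cannot be told apart.

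The upstream sequences of 3 receptors and of the nuclear effector are shown because Notch1, Notch3 and Rbpj had lower levels in the older WT lens and Notch2 was the one of the 3 that was called in Cryaa-R49C-homo against WT. Each is the 250 bases before the RefSeq transcription start on GRCm38.p6, 5′ to 3′ on the strand of the gene: chr2:26503823-26504072 (minus strand) for Notch1, chr3:98013288-98013537 (plus strand) for Notch2, chr17:32166891-32167140 (minus strand) for Notch3 and chr5:53590096-53590345 (plus strand) for Rbpj. Capitals mark TGGGAA, the core of the RBPJ binding motif, and its reverse complement TTCCCA.
Notch1: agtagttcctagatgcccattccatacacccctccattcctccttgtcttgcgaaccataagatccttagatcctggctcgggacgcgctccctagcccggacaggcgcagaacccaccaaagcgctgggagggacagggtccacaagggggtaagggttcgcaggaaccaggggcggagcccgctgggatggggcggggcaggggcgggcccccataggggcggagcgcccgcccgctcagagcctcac
Notch2: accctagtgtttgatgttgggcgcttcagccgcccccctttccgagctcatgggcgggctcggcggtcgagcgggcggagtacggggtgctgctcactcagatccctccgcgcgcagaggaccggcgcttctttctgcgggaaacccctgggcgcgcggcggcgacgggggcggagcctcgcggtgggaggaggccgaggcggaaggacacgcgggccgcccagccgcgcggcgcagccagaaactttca
Notch3: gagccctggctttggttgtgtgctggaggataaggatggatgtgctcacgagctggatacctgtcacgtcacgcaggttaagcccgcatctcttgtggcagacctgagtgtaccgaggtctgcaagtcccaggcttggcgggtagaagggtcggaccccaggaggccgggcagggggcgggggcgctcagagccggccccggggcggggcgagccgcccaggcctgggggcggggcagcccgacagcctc
Rbpj: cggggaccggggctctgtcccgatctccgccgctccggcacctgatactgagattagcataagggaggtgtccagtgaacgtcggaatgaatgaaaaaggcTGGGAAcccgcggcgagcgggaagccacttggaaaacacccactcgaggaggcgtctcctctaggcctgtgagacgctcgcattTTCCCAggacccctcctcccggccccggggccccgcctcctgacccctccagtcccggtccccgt
The core was found in the Rbpj window on the strand of the gene, from base 149 before the start, and on the other strand, from base 65 before the start. A second Rbpj start, with its window at chr5:53590236-53590485, shares the latter copy. In GENCODE vM21 the gene begins further upstream for Rbpj, at chr5:53466152, and for Notch1, at chr2:26516663. The printed windows of these 2 genes thus lie inside the annotated gene, and the regions before the outermost starts were not searched. The windows of Notch1, Notch2, Notch3, Jag1 and Dll1 did not hold these letters. Hes1 and Hey1 had no window in the reference and were not searched. Of 32851 mouse promoters of the same length 21.6% held at least 1 copy and 2.77% at least 2. The Notch2 window was 72% G and C with 34 CpG dinucleotides, the Notch1 window 66% with 16, the Notch3 window 68.8% with 17 and the Rbpj window 65.2% with 21, beside medians of 52.4% and 6 over all promoters.

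Per kilobase of transcript, the ligand Jag1 and the targets Hes1 and Hey1 stood above the receptors in the WT lens of both ages. For the targets at day 2 this order rests on the division by gene length, 14235 bases for Notch1, 2037 for Hes1 and 2203 for Hey1. In plain CPM the Cryaa WT mean was 11.4 for Notch1, 8.87 for Hes1 and 5.85 for Hey1. The authors described fewer reads at the 5′ end, and the effect of this on long genes was not tested. In Cryaa WT lenses, Jag1 had 4.92 ± 1.39 CPM per kilobase (SD, n = 3), Hes1 4.35 ± 0.522 and Hey1 2.65 ± 0.342. The libraries of Jag1 and Hes1 overlapped, and those of Hes1 lay above those of Hey1. Notch1 followed with 0.8 ± 0.214 CPM per kilobase, above Notch2 with 0.521 ± 0.0844, Notch3 with 0.486 ± 0.0946, Rbpj with 0.452 ± 0.053 and Dll1 with 0.292 ± 0.139, and each of these last 4 overlapped the next. In Cryab WT lenses, Hes1 had 9.02 ± 10.6 CPM per kilobase, with 1 library far above the other 2. Jag1 had 3.25 ± 1.01 and Hey1 3.12 ± 0.803 CPM per kilobase, and their libraries overlapped. Notch2 was the most abundant receptor at this age, with 0.5 ± 0.0626 CPM per kilobase, above Rbpj with 0.239 ± 0.0464 and Notch1 with 0.216 ± 0.0488, which overlapped. Notch3 had 0.126 ± 0.0691 and Dll1 0.032 ± 0.0411 CPM per kilobase, and their libraries overlapped.

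**Figure D1:**
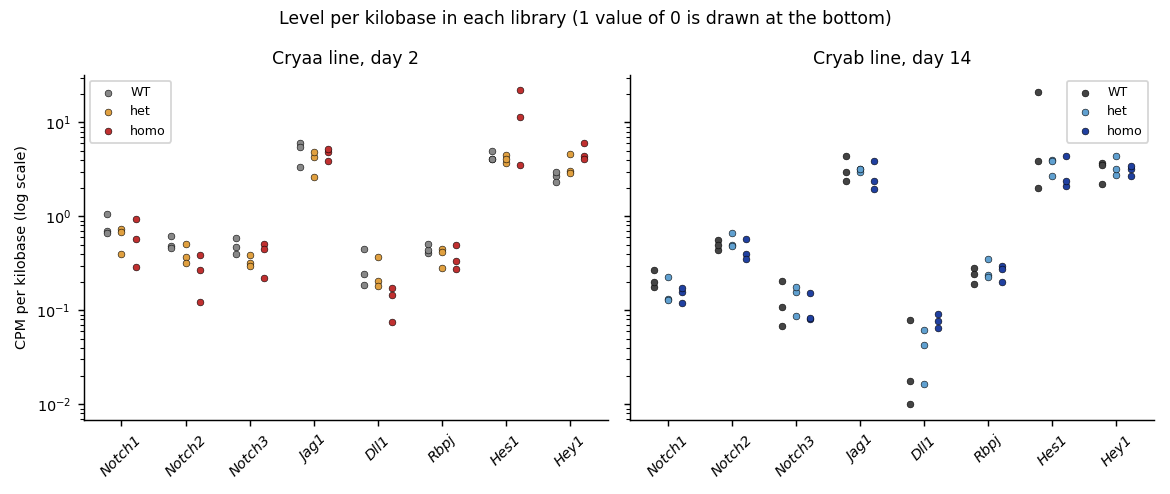
Level of each of the 8 genes in CPM per kilobase of transcript (log axis), 1 point per library, with the Cryaa line at day 2 on the left and the Cryab line at day 14 on the right. Jag1, Hes1 and Hey1 lie above the receptors, Rbpj and Dll1 in both lines, and Dll1 is the lowest by group mean in every group.

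The Cryaa-R49C-homo comparison with WT asks what the homozygous mutation does to these genes at day 2. Notch2 fell and Hey1 rose, and the other 6 genes did not pass the threshold, an adjusted p of at most 0.05 in edgeR's quasi-likelihood test with Benjamini-Hochberg adjustment over all tested genes. This is 2 of 8 genes, beside 9.79% of all tested genes called, with 4.87% called higher and 4.91% called lower. These shares stand for 1364 genes, a number that was 746 without WT library 1 and 3085 without homo library 1. The libraries of the 2 groups did not overlap for 3 of the 8 genes, Notch2, Dll1 and Hey1, beside 24.5% of all tested genes.

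**Figure D2:**
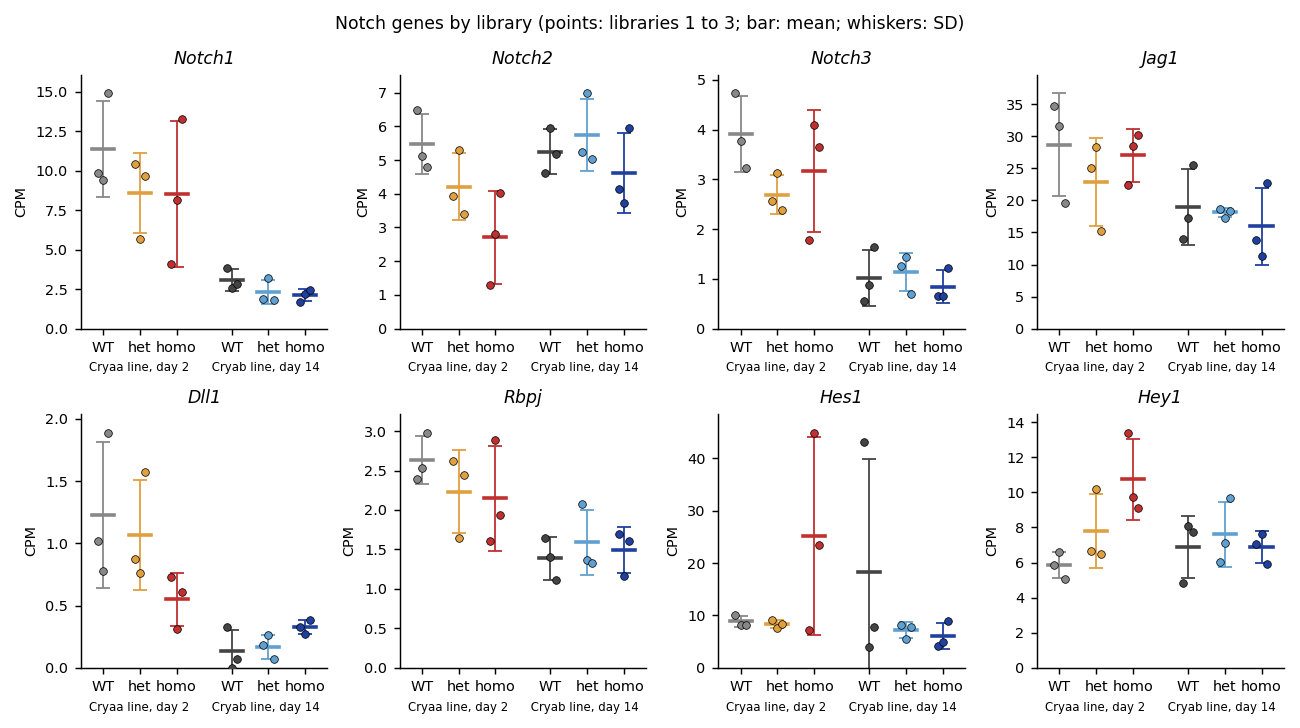
Level of each gene in CPM (TMM-scaled, linear axis from 0) in the 6 groups. Points are libraries 1 to 3 from left to right, bars the mean and whiskers the SD (n = 3), with the lower Hes1 whisker of Cryab WT running below the axis. Notch2 falls and Hey1 rises from WT to homo at day 2, 3 libraries stand far above the rest for Hes1, and Notch1, Notch3, Dll1 and Rbpj are lower at day 14.

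Among the receptors, Notch2 had 6.48, 5.13 and 4.8 CPM in WT libraries 1 to 3 and 1.28, 2.8 and 4.03 CPM in Cryaa-R49C-homo libraries 1 to 3. All homo libraries lay below all WT libraries, and library 1 was the lowest. The Notch2 level was 2.05-fold lower (log2 fold change -1.03, SE 0.31, adjusted p = 0.0361). The call was lost in several other fits. Without homo library 1 the log2 fold change was -0.68 (adjusted p = 0.0687), and without homo library 2 or any 1 WT library the adjusted p lay between 0.0541 and 0.145. It was also not called when the Cryaa line was fitted alone (adjusted p = 0.0992) or with library size alone (-0.66, adjusted p = 0.151). In GENCODE vM21, Notch2 shares 541 of its 10782 exon bases with Gm42820, a transcript model on the same strand. Whether the annotation used for counting held this model, so that ambiguous reads there were counted for neither, was not checked.

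Notch1 had 9.88, 9.39 and 14.9 CPM in WT and 4.12, 8.17 and 13.3 CPM in Cryaa-R49C-homo. The groups overlapped, with homo library 1 again the lowest and homo library 3 within the WT range (log2 fold change -0.42, SE 0.33, adjusted p = 0.479). Notch3 had 4.73, 3.78 and 3.22 CPM in WT and 1.78, 4.09 and 3.65 CPM in homo. Only homo library 1 lay below the WT range (log2 fold change -0.31, SE 0.34, adjusted p = 0.641).

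Of the ligands, Jag1 had 34.8, 31.7 and 19.6 CPM in WT and 22.4, 28.5 and 30.2 CPM in Cryaa-R49C-homo. The homo libraries all lay inside the WT range (log2 fold change -0.09, SE 0.28, adjusted p = 0.892). Dll1 was counted far less often, with 24, 23 and 54 counts in WT and 33, 10 and 16 counts in homo. These are 1.02, 0.777 and 1.89 CPM against 0.727, 0.314 and 0.608 CPM, so that every homo library lay below every WT library. The Dll1 difference did not pass the threshold (log2 fold change -1.15, SE 0.52, adjusted p = 0.172).

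Rbpj, the DNA-binding effector, had 2.39, 2.53 and 2.98 CPM in WT and 1.61, 2.89 and 1.94 CPM in Cryaa-R49C-homo. The groups overlapped through homo library 2 (log2 fold change -0.3, SE 0.29, adjusted p = 0.589). Rbpj has the pseudogenes Rbpj-ps1 and Rbpj-ps3, and reads that align to several places were not counted.

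Among the targets, Hey1 had 5.88, 6.59 and 5.08 CPM in WT and 13.4, 9.71 and 9.09 CPM in Cryaa-R49C-homo. All homo libraries lay above all WT libraries, and library 1, which had the lowest Notch2 level, had the highest Hey1 level. The Hey1 level was 1.84-fold higher (log2 fold change 0.88, SE 0.25, adjusted p = 0.0263). It stayed past the threshold without any 1 homo library, with adjusted p between 0.0265 and 0.0468, and missed it without WT library 1, 2 or 3, with adjusted p of 0.0849, 0.0543 and 0.108.

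Hes1 had 10.1, 8.27 and 8.23 CPM in WT and 7.22, 44.9 and 23.5 CPM in Cryaa-R49C-homo. Homo libraries 2 and 3 stood far above every WT library, while homo library 1 was below them all. The Hes1 difference did not pass the threshold (log2 fold change 1.5, SE 0.73, adjusted p = 0.234). It was 0.79 without homo library 2 and 1.95 without homo library 1, and was called in 0 of 6 fits without 1 library, with adjusted p between 0.0733 and 0.627. Over all 18 libraries, Hes1 stood above 10.1 CPM in homo libraries 2 and 3 and in Cryab WT library 1, with 43.2 CPM, and lay between 4.07 and 10.1 CPM in the rest. A model of all 26547 genes with a count, in which each gene was expected to take the spread of the common trend, called Hes1 higher in Cryaa-R49C-homo (log2 fold change 1.52, adjusted p = 1.29e-06).

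The libraries with high Hes1 also differed in transcripts of other kinds. The summed level of 12 vessel endothelium markers was 43.1, 117 and 114 CPM in Cryaa-R49C-homo libraries 1 to 3, against 37.5 to 57.5 CPM in WT, and none of the 12 was at 0 in either group. The summed level of 7 mural cell markers, counted without Notch3, was 27.1, 118 and 93.9 CPM in these homo libraries and 23.2 to 36.6 CPM in WT. In homo against WT, 2 of the 12 vessel markers (Cdh5 and Tie1) and 1 of the 7 mural markers were called higher and none lower. That mural marker was Rgs5, which made up most of the mural sum, with a mean of 66.2 CPM in homo and 23.7 CPM in WT. Macrophage markers summed to 17.6, 35.7 and 34.5 CPM in homo libraries 1 to 3 and 7.9 to 16.6 CPM in WT, with 2 of 8 (Aif1 and C1qa) called higher, and 2 of the 8 ciliary and pigment epithelium markers tested (Pmel and Mlana) were called lower. In Cryab WT libraries 1 to 3, retina markers summed to 291, 9.61 and 35.3 CPM and Müller glia markers to 60.1, 17.2 and 24.9 CPM. Libraries 1 of Cryab-R120G-het and Cryab-R120G-homo had retina sums of 246 and 432 CPM with Hes1 levels of 8.2 and 4.26 CPM. Their Müller glia sums were 86.7 and 119 CPM. In Cryab WT library 1, 6 immediate-early genes (Fos, Fosb, Egr1, Junb, Atf3 and Ier2, a list added after the values were seen) summed to 1570 CPM, against 2.6 and 2.75 CPM in the other 2 WT libraries. In Cryaa-R49C-homo libraries 1 to 3 the same 6 genes summed to 22.1, 22 and 21.5 CPM, against 3.75 to 15 CPM in WT. They summed to 3.3, 51.3 and 24.9 CPM in Cryaa-R49C-het, where libraries 2 and 3 had Hes1 levels of 7.59 and 8.28 CPM, within or below the WT range. Lens fiber markers summed to between 1220 and 1840 CPM in homo and between 3110 and 5030 CPM in WT, with Lim2 at 0 in both, and 5 of the 9 fiber markers tested were called lower. The part of these transcripts in the levels of Notch2, Hey1 and Hes1 was not tested.

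**Figure D3:**
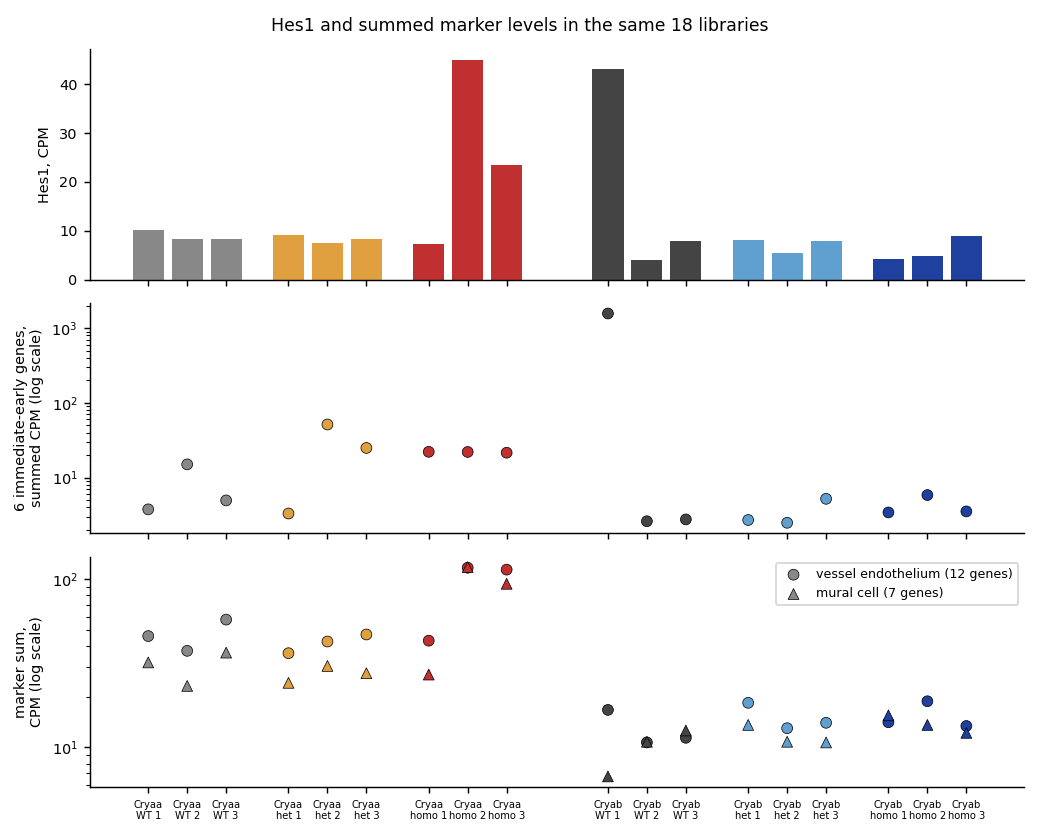
Hes1 level in CPM (top, linear axis), summed CPM of 6 immediate-early genes (middle, log axis) and summed CPM of 12 vessel endothelium and 7 mural cell markers (bottom, log axis) in each of the 18 libraries. The 3 libraries highest for Hes1 are Cryaa-R49C-homo 2 and 3, which also have the highest vessel and mural sums, and Cryab WT 1, which has the highest immediate-early sum.

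In Cryaa-R49C-het lenses the 8 genes were compared with the same WT libraries. None passed the threshold in edgeR or in DESeq2, and none had an unadjusted p under 0.05 in edgeR, beside 0.00717% of all tested genes called and 5.09% with an unadjusted p under 0.05. Notch2 had 3.92, 5.31 and 3.39 CPM in het, between the WT and homo means (log2 fold change against WT -0.38, SE 0.3, adjusted p = 0.836). Hey1 had 6.67, 10.2 and 6.46 CPM, with libraries 1 and 2 above every WT library (log2 fold change 0.41, SE 0.25, adjusted p = 0.836). Notch3 had 2.56, 3.13 and 2.39 CPM, all below WT, and was the only one of the 8 whose libraries did not overlap, beside 21.9% of all tested genes (log2 fold change -0.54, SE 0.34, adjusted p = 0.836). Hes1 had 9.18, 7.59 and 8.28 CPM in het, without the high libraries seen in homo.

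Directly compared with het, Cryaa-R49C-homo lenses had no called gene among the 8 in edgeR's fit of the 13938 tested genes or in DESeq2, beside 8.32% of all tested genes called. With all genes kept, edgeR called Hes1 higher (log2 fold change 1.58, adjusted p = 4.24e-07). Hes1 and Notch2 had an unadjusted p under 0.05 in edgeR, which is 2 of 8 beside 23.7%. The log2 fold changes were 1.59 for Hes1 (SE 0.73, adjusted p = 0.21), -0.66 for Notch2 (SE 0.31, adjusted p = 0.202) and 0.47 for Hey1 (SE 0.25, adjusted p = 0.254). The Hes1 value ran from 0.87 without homo library 2 (adjusted p = 0.653) to 2.03 without homo library 1, where it passed (adjusted p = 0.0499). The groups did not overlap for Dll1, lower in homo, beside 22% of all tested genes.

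At 14 days the Cryab line was compared in the same way, and none of the 8 genes passed the threshold in edgeR's fit of the tested genes or in DESeq2 in any of its 3 comparisons. None had an unadjusted p under 0.05 in that edgeR fit either. With all genes kept, edgeR called Hes1 lower in het against WT (log2 fold change -1.31, adjusted p = 0.000658) and in homo against WT (-1.58, adjusted p = 4.28e-06). In the fit of the tested genes the het difference was -1.34 and turned to 0.27 without WT library 1. Among the tested genes, those called were 0.00717% of all tested genes for het against WT, 0.0502% for homo against WT (7 genes, and 18 with the replicate number as a block) and 0% for homo against het. The same comparisons gave 140, 302 and 15 called genes with all genes kept, and DESeq2 gave 12, 20 and 0. Unadjusted p values under 0.05 were seen for 3.82%, 6.1% and 1.97% of all tested genes, and groups that did not overlap for 10.1%, 9% and 6.86%.

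Notch1 had 3.86, 2.54 and 2.82 CPM in Cryab WT, 1.89, 3.2 and 1.82 CPM in Cryab-R120G-het and 1.7, 2.2 and 2.45 CPM in Cryab-R120G-homo. Its homo libraries all lay below WT, the only such gene of the 8 (log2 fold change -0.52, SE 0.39, adjusted p = 0.938). Notch2 had 4.63, 5.94 and 5.19 CPM in WT, 5.23, 6.98 and 5.04 CPM in het and 4.13, 3.74 and 5.96 CPM in homo. These groups overlapped (homo against WT, log2 fold change -0.2, SE 0.32, adjusted p = 0.977). Notch3, with 5 to 22 counts in WT, differed by -0.33 on the log2 scale in homo (SE 0.44, adjusted p = 0.969).

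Jag1 had 14, 17.3 and 25.5 CPM in Cryab WT and 13.9, 11.3 and 22.7 CPM in Cryab-R120G-homo, and the groups overlapped (log2 fold change -0.25, SE 0.29, adjusted p = 0.963). Between libraries of equal number, which the labels do not give as pairs, the homo level was the lower one each time, with nearly equal levels for libraries 1. With the replicate number as a block the log2 fold change was -0.26 (SE 0.25, adjusted p = 0.905). Dll1 was near the limit of detection, with 3, 0 and 1 counts in WT, 2, 4 and 1 in het and 5, 5 and 5 in homo. At 15 counts against 4 in all, the scaled ratio of homo to WT was 3.03 with an exact 95% interval of 0.964 to 12.5, which covers counting error only. The homo libraries all lay above those of het for Dll1, and its difference from WT was not detectable at this depth (adjusted p = 0.879).

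Rbpj had 1.65, 1.4 and 1.11 CPM in Cryab WT and 1.7, 1.16 and 1.61 CPM in Cryab-R120G-homo, which overlapped (log2 fold change 0.11, SE 0.34, adjusted p = 0.99). Hey1 had 4.85, 8.07 and 7.72 CPM in WT and 7.08, 7.65 and 5.89 CPM in homo, and the groups overlapped (log2 fold change -0.01, SE 0.26, adjusted p = 1). Hes1 had 43.2, 4.07 and 7.87 CPM in WT, 8.2, 5.48 and 7.85 CPM in het and 4.26, 4.9 and 8.87 CPM in homo. The Hes1 log2 fold change of -1.6 in homo (SE 0.77, adjusted p = 0.828) rested on WT library 1, without which it was 0.01 (adjusted p = 1).

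**Figure D4:**
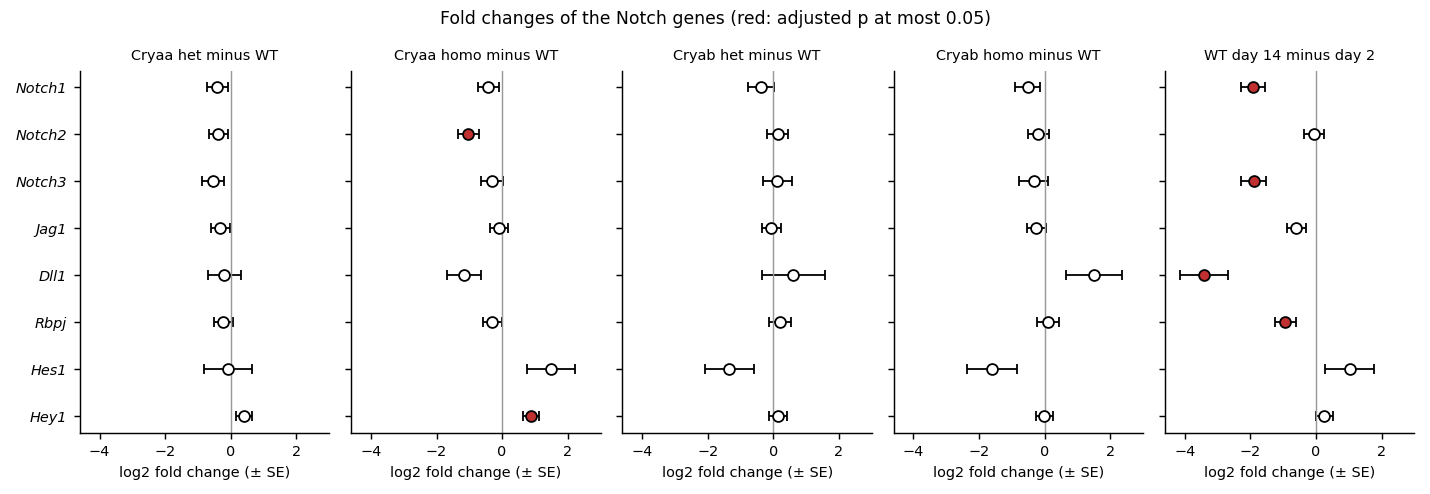
Log2 fold change with its SE for each gene in 5 comparisons, from edgeR's quasi-likelihood fit of all 18 libraries; red points have an adjusted p of at most 0.05. Notch2 and Hey1 pass in Cryaa homo against WT, Notch1, Notch3, Dll1 and Rbpj pass in WT at day 14 against day 2, and no gene passes in the other 3 comparisons.

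Whether the homo effect differed between lines was tested as an interaction, and none of the 8 genes passed in edgeR's fit of the tested genes or in DESeq2, beside 2.91% of all tested genes called. Hes1 was called by edgeR with all genes kept (-3.09 on the log2 scale, adjusted p = 3.54e-13). Hes1, Dll1 and Hey1 had an unadjusted p under 0.05 in edgeR, which is 3 of 8 beside 15.4%. The interaction was -3.1 on the log2 scale for Hes1 (SE 1.06, adjusted p = 0.168), -0.89 for Hey1 (SE 0.36, adjusted p = 0.221), and 0.83 for Notch2 (SE 0.44, adjusted p = 0.386). For Dll1 the adjusted p was 0.186, and since Cryab WT had 3, 0 and 1 counts, the fitted value depended on single libraries, from 1.96 without Cryab WT library 2 to 4.17 without Cryab WT library 1. For Hes1 it passed without Cryaa-R49C-homo library 1 (-3.54, adjusted p = 0.0378) and shrank to -1.5 without Cryab WT library 1 (adjusted p = 0.27).

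Between the WT lenses of the 2 lines, 4 of the 8 genes were lower at day 14 than at day 2 and none was higher, although a model of all genes with a count also called Hes1 higher and not Rbpj. Among all tested genes, 23.2% were called, 11.5% lower and 11.7% higher. The 4 are 2 receptors, Notch1 and Notch3, the ligand Dll1 and the effector Rbpj, and these were also the genes whose libraries did not overlap, 4 of 8 beside 43.2% of all tested genes. This comparison uses the WT libraries of both lines that also served as controls above, and it is one of age and of line at once.

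Notch1 had 9.88, 9.39 and 14.9 CPM at day 2 and 3.86, 2.54 and 2.82 CPM at day 14. It was 3.75-fold lower (log2 fold change -1.91, SE 0.36, adjusted p = 0.000677). Notch3 had 4.73, 3.78 and 3.22 CPM at day 2 and 0.551, 0.867 and 1.63 CPM at day 14. It was 3.73-fold lower (log2 fold change -1.9, SE 0.39, adjusted p = 0.00139), and both receptors stayed past the threshold without any 1 WT library. Notch1 overlaps 0610009E02Rik and Gm13568, and Notch3 overlaps Gm17276, on the opposite strand, and whether the counting used strand is not stated. Notch2 had 6.48, 5.13 and 4.8 CPM at day 2 and 4.63, 5.94 and 5.19 CPM at day 14, and the groups overlapped (log2 fold change -0.05, SE 0.31, adjusted p = 0.929).

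Dll1 was counted 101 times in the day 2 libraries together and 4 times at day 14, a scaled ratio of 11.6 with an exact 95% interval of 4.4 to 43.4 for counting error only (adjusted p = 0.00195). Its exons overlap those of A930024N18Rik on the opposite strand. Jag1 had 34.8, 31.7 and 19.6 CPM at day 2 and 14, 17.3 and 25.5 CPM at day 14, and the groups overlapped (log2 fold change -0.6, SE 0.29, adjusted p = 0.139). Rbpj had 2.39, 2.53 and 2.98 CPM at day 2 and 1.65, 1.4 and 1.11 CPM at day 14, with no overlap. It was 1.91-fold lower (log2 fold change -0.94, SE 0.32, adjusted p = 0.0395), but the call was lost without any 1 Cryaa WT library or without Cryab WT library 2 or 3, with adjusted p between 0.0577 and 0.148, and with all genes kept (adjusted p = 0.0787).

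Neither target passed the threshold among the tested genes. Hey1 had 5.88, 6.59 and 5.08 CPM at day 2 and 4.85, 8.07 and 7.72 CPM at day 14, and the groups overlapped (log2 fold change 0.25, SE 0.26, adjusted p = 0.526). Hes1 was 1.03 higher on the log2 scale (SE 0.74, adjusted p = 0.35), and its difference was -0.57 without Cryab WT library 1. Hes1 was called higher with all genes kept (log2 fold change 0.96, adjusted p = 0.00433). These values are relative to the median gene, since with library size alone the median of all genes shifted by -1.61, turned Hey1 to -1.28 (adjusted p = 0.000627) and called 7 of the 8 genes lower. Vessel endothelium markers summed to 37.5 to 57.5 CPM at day 2 and 10.7 to 16.7 CPM at day 14, mural cell markers to 23.2 to 36.6 CPM and 6.72 to 12.6 CPM, and lens fiber markers to 3110 to 5030 CPM and 12500 to 14900 CPM. Of the 12 vessel markers 10 were called lower, of the 7 mural markers 2, and of the 9 fiber markers tested 5 were called higher. All 8 macrophage markers and 5 of the 8 ciliary and pigment epithelium markers tested were also called lower. Of the 9 retina markers tested 4 were called lower and 1 higher, and of the 6 Müller glia markers 2 lower and 1 higher. Of the 6 immediate-early genes 3 were called higher, with a sum of 1570 CPM in Cryab WT library 1 against 2.6 and 2.75 CPM in libraries 2 and 3. None of the vessel or mural markers was at 0 in either group, and the part of these transcripts in the lower levels of Notch1, Notch3, Dll1 and Rbpj was not tested.

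The rest of the pathway was followed with 55 further genes listed by role, of which 54 could be tested, all but Hes7. In Cryaa-R49C-homo lenses against WT, 1 of 54 was called higher and 1 lower, beside the 4.87% and 4.91% of all tested genes. Kat2a, a histone acetyltransferase of coactivator complexes, had 4.9, 4.73 and 4.1 CPM in WT and 8.74, 12.4 and 15.1 CPM in homo (log2 fold change 1.4, SE 0.24, adjusted p = 0.00045). Lfng, a fringe glycosyltransferase that modifies Notch receptors, had 4.94, 3.68 and 3.43 CPM in WT and 1.1, 1.35 and 1.98 CPM in homo (log2 fold change -1.46, SE 0.36, adjusted p = 0.0109). For both, the groups did not overlap, and Lfng missed the threshold without WT library 1 (adjusted p = 0.0613) and with library size alone (adjusted p = 0.0708). Without homo library 1, 9 of 54 were called, beside 3085 of all genes tested in that fit.

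Against het, 4 of the 54 were called in Cryaa-R49C-homo, 3 higher and 1 lower, beside 8.32% of all tested genes, 4.69% higher and 3.63% lower. Kat2a and Lfng were again among them, with log2 fold changes of 1.27 (SE 0.24, adjusted p = 0.00155) and -1.17 (SE 0.36, adjusted p = 0.0446). Notch4, the endothelial receptor, had 0.654, 0.759 and 0.698 CPM in het and 0.947, 3.61 and 4.41 CPM in homo (log2 fold change 2.07, SE 0.51, adjusted p = 0.0138). Its 2 high libraries were those with high Hes1 and high vessel and mural marker sums, and their part in the Notch4 level was not tested. Mib2, a ubiquitin ligase for Notch ligands, had 0.981, 1.14 and 0.872 CPM in het and 1.7, 2.77 and 4.6 CPM in homo (log2 fold change 1.59, SE 0.41, adjusted p = 0.0178). Notch4 lost the call without het library 1 or 3 or homo library 2 or 3, with adjusted p between 0.0618 and 0.092, and Mib2 without het library 1 or 3 or homo library 3, with adjusted p between 0.0661 and 0.138. Lfng lost it without any 1 of these 6 libraries but homo library 3, with adjusted p between 0.065 and 0.172, and with library size alone (adjusted p = 0.127). The count was 14 without homo library 1, beside 4102 of all genes tested in that fit, and as low as 1 without a het library. None of the 54 was called in the 2 het comparisons with WT, the other Cryab comparisons or the interaction in edgeR's fit of the tested genes, although in the interaction 2 were called with all genes kept and 5 without Cryaa-R49C-homo library 1. The numbers of the 54 with an unadjusted p under 0.05 were 6 and 1 in the het comparisons of the Cryaa and Cryab lines, beside 5.09% and 3.82% of all tested genes. They were 3 and 1 in Cryab-R120G-homo against WT and against het, beside 6.1% and 1.97%, and 5 in the interaction, beside 15.4%. DESeq2 called none in these comparisons but 1 in the interaction.

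In WT at day 14 against day 2, 12 of the 54 were called, 11 lower and 1 higher, beside the 11.5% and 11.7% of all tested genes. The median log2 fold change of the 54 was -0.5, that of the 8 Notch genes -0.77 and that of all tested genes -0.07. For 2 of the lower genes, no library at day 14 had more than 3 counts. Nrarp, a feedback inhibitor that is itself a Notch target, had 2.13, 2.2 and 3.61 CPM at day 2 and 1, 1 and 3 counts at day 14, a scaled ratio of 20.1 (exact 95% interval 8.46 to 62.4, adjusted p = 3.31e-05). Mfng, another fringe glycosyltransferase, had a ratio of 17.4 (7.32 to 54.2, adjusted p = 0.000768). Heyl, a target of the same family as Hey1, had 2.26, 1.72 and 4.34 CPM at day 2 and 0.11, 0.267 and 0 CPM at day 14 (log2 fold change -4.34, SE 0.71, adjusted p = 0.000162). These are 1, 4 and 0 counts at day 14, and the fitted Heyl value ran from -5.79 without Cryab WT library 2 to -3.73 without Cryab WT library 3. Dtx4 and Dtx1, ubiquitin ligases that act on Notch receptors, differed by -1.75 (SE 0.4, adjusted p = 0.00297) and -1.94 on the log2 scale (SE 0.61, adjusted p = 0.0266). Tle1, a corepressor, differed by -1.31 (SE 0.3, adjusted p = 0.00309), Numb, an inhibitor of Notch, by -1.43 (SE 0.4, adjusted p = 0.0129) and Notch4 by -2.33 (SE 0.65, adjusted p = 0.013). The gene called higher was Psenen, a subunit of the γ-secretase that cuts the receptor, with 4, 4.36 and 3.64 CPM at day 2 and 4.96, 8.54 and 7.35 CPM at day 14 (log2 fold change 0.81, SE 0.28, adjusted p = 0.0383). Psenen missed the threshold with all genes kept (adjusted p = 0.0672) and without any 1 WT library other than Cryab WT library 1, with adjusted p between 0.065 and 0.171, and its log2 fold change was -0.72 with library size alone (adjusted p = 0.0527). Numb missed it without Cryab WT library 2 (adjusted p = 0.0879), and Notch4 without Cryab WT library 3 (adjusted p = 0.0697). Dtx1 missed it without Cryaa WT library 3 or Cryab WT library 2 or 3, with adjusted p of 0.114, 0.13 and 0.063. Nrarp overlaps Gm38287 on the opposite strand over 2051 of its 2582 exon bases. The count fell to 7 without Cryaa WT library 3 and to 6 without Cryab WT library 3, all lower.

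**Figure D5:**
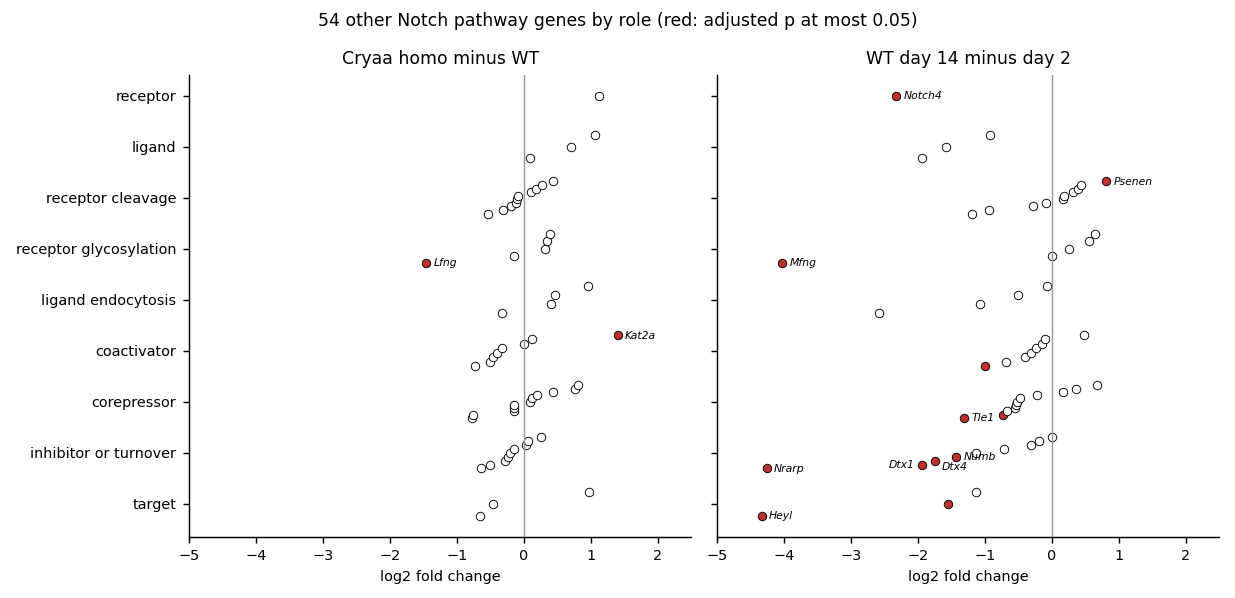
Log2 fold change of 54 other Notch pathway genes, 1 point per gene, ordered by role, in Cryaa homo against WT (left) and WT at day 14 against day 2 (right); red points have an adjusted p of at most 0.05 and the named ones follow the rule for named genes. On the left Kat2a is the red point above 0 and Lfng the one below, and on the right 11 red points lie below 0 and Psenen above.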

How the data were processed

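RNA of pooled whole lenses was read in 18 poly-A libraries, 3 in each of 6 groups. The authors aligned single reads to GRCm38 with STAR 2.0.4b and counted uniquely aligned, unambiguous reads per Ensembl gene with featureCounts 1.4.5, without stating the strand setting. The deposited counts are raw, and identical lines of a gene were merged (41422 lines, 40800 genes). The RPKM values deposited by the authors were used only to recover gene length. Their CPM and log2 CPM tables were left out.

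Counts were tested in R 4.3.3 by the robust quasi-likelihood test of edgeR 4.0.16 with TMM scaling, in 1 model of 6 groups over the 13938 genes kept by filterByExpr, with 8 contrasts and a Benjamini-Hochberg threshold of 0.05. The study kept all 26547 genes with a count, and that filter was tried as an alternative. It was expected to make the prior degrees of freedom infinite, a value not recorded for that fit (median 10.2 in the main fit). SE is the absolute log2 fold change over the root of F. CPM is the count over the total of tested genes times the TMM factor. Groups with no library above 3 counts were taken as at the floor. Other alternatives were RLE factors, library size alone, DESeq2 1.42.0, each line alone, the replicate number as a block and leaving out each library. The code was tested on simulated data.

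The 8 genes, the 55 other pathway genes and the marker lists (lens epithelium, lens fiber, vessel endothelium, mural cell, retina, Müller glia, ciliary and pigment epithelium, macrophage) were chosen with earlier results of these data known. Each of the 8 is named, as are any of the 55 that passed (at most the 8 with the smallest p per direction) and the 3 genes most like each of the 8. Positions and overlaps came from GENCODE vM21, and upstream sequences from RefSeq (GRCm38.p6), which matched 6 of the 8 genes. With group means removed, Cryab WT and homo libraries of equal number had r = 0.28, 0.18 and 0.16. This was the best match of each WT library, but single values were higher elsewhere, such as 0.48 for Cryaa WT and het libraries 3. The labels do not say what a number marks, so no pairing is established and the block served only as an alternative.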

Additional observations from a re-analysis of the deposited data

How the results depend on the processing

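In Cryaa-R49C-homo against WT, 1 of the 8 Notch genes was called with library size alone and 1 with the line fitted alone (Hey1 in each), and between 0 and 2 without 1 library (0 without Cryaa WT library 1, 2 or 3, and 1 without homo library 1 or 2). With all genes kept, 1 of the 8, Hes1, was called in Cryaa-R49C-homo against het, in Cryab het and Cryab homo against WT, and in the difference between the lines. In WT at day 14 against day 2 that fit called Hes1 higher and lost Rbpj, so that 4 were called, 1 higher and 3 lower. Leaving out 1 library gave between 0 and 1 in Cryaa-R49C-homo against het and in the difference between the lines, and between 3 and 4 in WT at day 14 against day 2. With library size alone the WT ages gave 7 of the 8 lower and 52 of the 54 other genes lower, and Hey1 reversed to -1.28; the median of all genes moved by -1.61 there. Of the 54 other genes in Cryaa-R49C-homo against WT, 5 were called with library size alone and 4 with DESeq2, and between 1 and 9 without 1 library; against het the range was 1 to 14, and for the WT ages 6 to 13. In the difference between the lines, 2 were called with all genes kept, 1 with DESeq2 and between 0 and 5 without 1 library. With all genes kept, the numbers of all called genes went from 1 to 17 in Cryaa het against WT, from 1 to 140 and from 7 to 302 in Cryab het and homo against WT, from 0 to 15 between these 2, and from 406 to 798 in the difference between the lines; DESeq2 gave 2, 12, 20, 0 and 626. Fitting the Cryaa line alone gave 684 in homo against het, in place of 1160, and 0 in het against WT. Library size alone gave 11596 for the WT ages in place of 3237 and 255 for the difference between the lines, and moved the split of all called genes in Cryaa-R49C-homo against WT from 679 higher and 685 lower to 1884 and 254. Without 1 library, the numbers of all called genes ran from 746 (Cryaa WT 1 left out) to 3085 (homo 1) in Cryaa-R49C-homo against WT, from 460 (homo 2) to 4102 (homo 1) against het, from 252 (Cryaa WT 2) to 1812 (Cryaa homo 1) in the difference between the lines, from 1 to 13 in Cryab-R120G-homo against WT, and down to 1809 (Cryaa WT 3) for the WT ages. The replicate block left the number of called Notch genes at 0 in Cryab-R120G-homo against WT. It raised the number of all called genes there from 7 to 18 (from 1 to 3 in Cryab het against WT). The labels do not say what a number marks. Elsewhere the block also changed no call among the 8 (Notch2 in Cryaa-R49C-homo -1.09, adjusted p = 0.0389). Of the values of the 8 genes under all alternatives, 773 kept their side of the threshold and direction where called, 16 lost the call, 10 gained it and 1 reversed. The cause of these shifts was not tested. Low counts limit Dll1 at day 14, with 0 to 5 counts a library.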

Other observations

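Genes whose log2 CPM followed each of the 8 Notch genes most closely over the 18 libraries, after each line was centered on its own mean, are given as a description; libraries of a group share their group, and no p is given. Notch2 was followed by Eml2 (Pearson r = 0.89), Tmprss5 (0.89) and the growth factor receptor gene Fgfr3 (0.88). Notch1 was followed by the transcription factor gene Sox4 (0.88), Sugp2 (0.86) and Maz (0.86), and Notch3 by Prkar2b (0.86), Tns3 (0.86) and Zdhhc21 (0.84). Jag1 was followed by Ldlrad3 (0.94), Peak1 (0.92) and Slit3 (0.89), Dll1 by Syt9 (0.91), Abcg1 (0.9) and Wnk4 (0.89), and Rbpj by Strbp (0.86), Ptprt (0.83) and Cnot6 (0.8). Hey1 was followed by Faim (0.97), Eif5 (0.92) and Ostf1 (0.91). Hes1 was followed by Jund (0.92), Ccnl1 (0.91) and Ddx3x (0.9), whose rank correlations were lower, at 0.78, 0.59 and 0.45. Among the 8 themselves, Notch3 and Jag1 had the highest r, 0.73, and Notch1 and Hey1 the lowest, -0.7.

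Other cell markers varied between libraries as follows. Lens epithelium markers summed to between 488 and 924 CPM in the Cryaa line and between 1100 and 1400 CPM in the Cryab line. Most of this sum was Sparc, with a mean of 615 CPM in Cryaa WT and 1270 CPM in Cryab WT, and of the 7 epithelium markers 1 (Sparc) was called higher and 1 (Pax6) lower between the WT ages. Macrophage markers summed to 9.04 to 14.5 CPM in Cryaa-R49C-het and 0.534 to 2.42 CPM in Cryab WT. Retina markers summed to 291, 9.61 and 35.3 CPM in Cryab WT libraries 1 to 3 and to 35.8 to 98.8 CPM in Cryaa WT. They summed to 246, 115 and 32.2 CPM in Cryab-R120G-het and 432, 222 and 73.5 CPM in Cryab-R120G-homo. Müller glia markers summed to 55.6 to 132 CPM in Cryaa WT and 17.2 to 60.1 CPM in Cryab WT, and ciliary and pigment epithelium markers to 20.7 to 37.6 CPM in Cryaa WT and 9.85 to 17 CPM in Cryaa-R49C-homo. In the Cryab line the ciliary and pigment epithelium markers summed to 9.03 to 11.2 CPM in WT, 19.5 to 53.1 CPM in het and 16.7 to 30.3 CPM in homo. The part of these transcripts in the Notch gene levels was not tested.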
